A study of Mus musculus with 22 samples.

Results

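Oxidized low-density lipoprotein (oxLDL) was compared with plain medium (DMEM) in mouse aortic endothelial preparations after 4 h ex vivo, on 3 arrays each. These 6 arrays were taken from a series of 22 by their treatment label, and every gene that passed a filter on low signal was followed, 7550 genes in all. The preparations came from aortas of C57BL/6 wild-type mice, with 1 aorta laid open per well in 1 mL DMEM with 1% fetal bovine serum. The oxLDL wells received 50 µg/mL oxLDL. For comparison, the same incubation was run with 50 µg/mL oxPAPC, a mixture of oxidized phospholipids, and with 4 ng/mL bacterial lipopolysaccharide (LPS), 3 arrays each. After incubation the luminal layer was scraped off with collagenase, and its RNA, kept where the integrity number reached 7.0, was amplified and hybridised. Fresh intima of wild-type mice aged 4 weeks (6 arrays) gave a level before incubation, while the labels give no age for the incubated aortas. How many animals or cultures stand behind an array is not stated, and the p-values therefore reflect the spread between arrays alone, which may be technical.

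The arterial endothelium is the single layer of cells that faces the blood and rests on a basement membrane of laminins, type IV collagens and the proteoglycan perlecan. OxLDL is low-density lipoprotein whose lipids and protein have been oxidized, and it forms in the arterial wall in atherosclerosis. Cells take it up through scavenger receptors such as LOX-1 and CD36 and break it down in lysosomes. Its lipids are known in endothelial culture to act on adhesion molecules, chemokines, nitric oxide synthesis and antioxidant genes. All levels below are log2 RMA signals, on which a difference of 1 is a doubling. The values of a group are listed in the order of replicates 14, 15 and 16 for oxLDL and 9, 10 and 11 for DMEM.

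The preparations carried endothelial RNA together with RNA of other wall cells. Pecam1, Cdh5, Tek and Vwf, which define endothelium, lay above the 96th percentile in all 6 arrays. Also endothelial, Tie1 and Kdr ranked lower, from 76.0 to 82.8 and from 55.9 to 71.0. The smooth muscle genes Myh11 and Acta2 ranked between the 93.8th and the 99.7th percentile, but Cnn1 and Lmod1 only between the 56.5th and the 79.7th. The T cell gene Cd3e and the fat cell gene Adipoq lay near the bottom of the range, while the T cell gene Cd3d averaged the 49.3rd percentile in DMEM. Array medians of the series lay between 5.227 and 5.392. Across genes, arrays correlated at 0.9711 to 0.9732 within oxLDL, at 0.9663 to 0.9786 within DMEM, and at 0.9525 to 0.9632 between oxLDL and DMEM. In such bulk samples, fewer cells of a type and less RNA per cell cannot be told apart.

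At an adjusted p under 0.05 in limma, 212 of 7550 genes changed with oxLDL, or 2.81% of those tested. This share is the background for the count of calls in each list below. Falls outnumbered rises, with 156 genes lower (2.07%) and 56 higher (0.742%). Without regard to the test, 3665 genes lay below 0 and 3885 above. The median change was −1.0 among the falls and 0.77 among the rises on the log2 scale, and the median over all genes was 0.01. A change of at least 1 was seen in 77 falls and 13 rises. The oxLDL and DMEM arrays did not overlap for any of the 212 genes, against 28.2% of all genes tested whose arrays did not overlap in either direction (13.9% lower and 14.4% higher). At an unadjusted p under 0.05, 1635 genes differed. Among the rises, 5 genes averaged below the 40th percentile in DMEM, and among the falls 12 did so in oxLDL, so the size of these changes rests on values near background.

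The number of calls depended on single arrays. It was 23 without DMEM replicate 9, 92 without DMEM replicate 10, 119 without DMEM replicate 11, 36 without oxLDL replicate 15 and 60 without oxLDL replicate 16, against 269 without oxLDL replicate 14. Since the other stimuli share the estimate of the spread, leaving out oxPAPC replicate 13, an alternative chosen after seeing the data, also moved it, to 377. Whichever of the 6 arrays was left out, 21 of the 212 calls were kept, and all 21 were falls. They included Ythdf3, Gid8, Far1, Prom1, Mdfic, Emcn and Gla, which are described below. Another 26 calls were lost whichever array was left out, among them Rbpj, Chac1, Nr4a2, Itga2, Eid1, Fzd4, Asah1 and Scpep1.

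**Figure D1:**
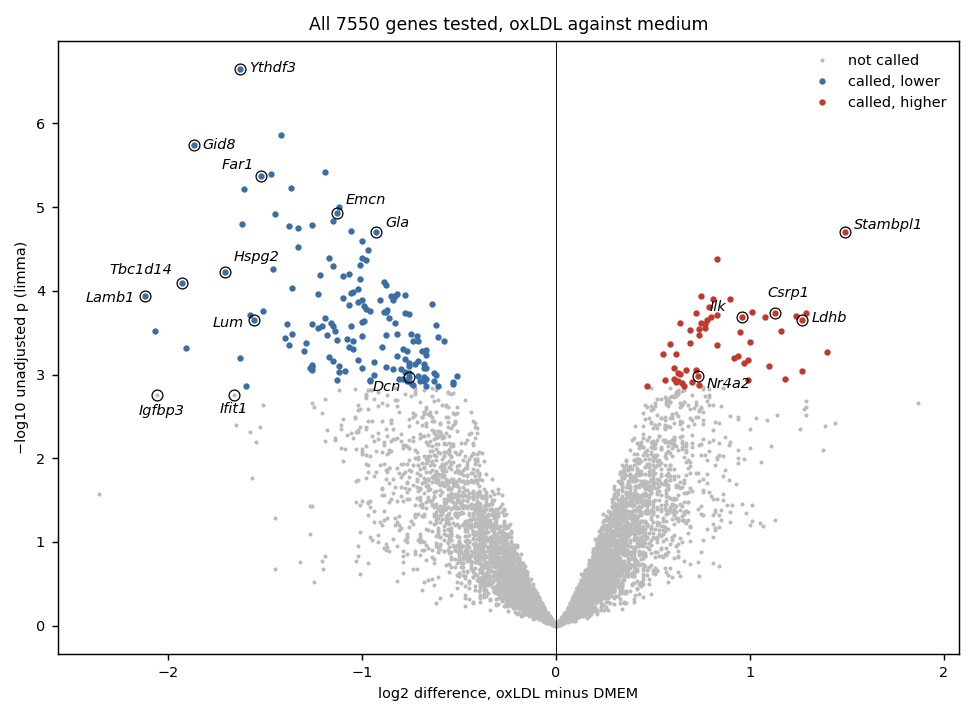
Log2 difference (oxLDL minus DMEM, horizontal axis) against −log10 of the unadjusted limma p (vertical axis) for the 7550 genes tested, with the 156 falls in blue, the 56 rises in red and uncalled genes in grey. The blue points reach further from 0 than the red ones, and Ythdf3 has the smallest p.

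Genes of the basement membrane and of the small matrix proteoglycans gave 3 of the 15 largest falls with oxLDL, while collagens and the other laminins passed no test. Among 21 tested laminin and basement membrane genes, 2 fell and none rose, with a median difference of −0.09. Lamb1, the laminin beta-1 chain, had a signal of 6.30, 4.99 and 4.69 in oxLDL, against 7.38, 7.34 and 7.63 in DMEM. All 3 oxLDL arrays were below all DMEM arrays, although replicate 14 lay nearer to them than the other two. The difference was −2.12 ± 0.38 (SE), a level 4.36-fold lower with oxLDL (limma adjusted p = 0.0179). The other Lamb1 probe sets gave −1.61 and, below the 40th percentile of its arrays, −0.42. In fresh wild-type intima the signal of Lamb1 ran from 6.39 through a median of 7.34 to 7.83, so the medium arrays lay within the fresh range.

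Hspg2 encodes perlecan, the large heparan sulfate proteoglycan of basement membranes. Its signal was 6.05, 5.96 and 5.63 in oxLDL, against 7.06, 7.35 and 8.38 in DMEM. The groups did not overlap, and 1 high DMEM array widened the spread of the medium group. The difference was −1.71 ± 0.28 (adjusted p = 0.0149), but a second probe set of Hspg2 went the other way, by 0.34, so the fall rests on 1 of 2 probe sets. Their partners did not pass the test. Col4a1 and Col4a2, the main type IV collagen chains, differed by 0.20 and −0.10, Lamc1, the laminin gamma-1 chain, by 0.34, and Nid1, which links laminin to collagen IV, by −0.09.

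Of 24 small leucine-rich proteoglycan, versican and elastic fibre genes, 3 fell, none rose and the median was −0.11. Lum encodes lumican, a collagen-binding proteoglycan, and read 4.51, 4.35 and 4.80 in oxLDL, against 6.08, 6.19 and 6.06 in DMEM. The arrays of each group lay close together and far from the other group, although the oxLDL mean was under the 40th percentile, with a difference of −1.56 ± 0.30 (adjusted p = 0.0207). Dcn, the related decorin, fell by 0.76 (adjusted p = 0.0437), and Ltbp4, which binds latent TGF-beta and takes part in elastic fibre assembly, fell by 1.17 (adjusted p = 0.0328). Lum and Dcn are also fibroblast markers. The other 8 tested fibroblast markers passed no test, the list's median was 0.20, and its summed linear signal ranged from 3175 to 4428 in oxLDL and from 2592 to 4108 in DMEM. The part of fibroblast content in these falls was not tested.

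The collagens outside the basement membrane held no call among 10 genes and had a median of 0.08. Col3a1, the type III collagen chain, read 10.49, 9.93 and 9.60 in oxLDL, against 8.20, 9.15 and 9.49 in DMEM. Every oxLDL array was above every DMEM array, but the DMEM arrays spread widely and the difference of 1.06 ± 0.35 missed the threshold (adjusted p = 0.115). None of 21 matrix protease and inhibitor genes was called either. Mmp14, a membrane-bound collagenase, came nearest at −0.70 (adjusted p = 0.0878). Among 13 glycocalyx genes, Ndst2, a heparan sulfate sulfotransferase, had the smallest p, at −0.64 (adjusted p = 0.14).

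Receptors that hold cells to this matrix moved in both directions. Of 16 integrin and adaptor genes, 2 rose, 1 fell and the median was 0.09. Itga6, the alpha subunit of laminin-binding integrins, read 5.10, 5.01 and 5.49 in oxLDL, against 6.49, 6.46 and 5.71 in DMEM. DMEM replicate 11 came close to the oxLDL arrays without reaching them, and the difference was −1.02 ± 0.22 (adjusted p = 0.0345), with −0.49 in a second probe set. Itga2, the alpha subunit of a collagen-binding integrin, rose by 0.97 ± 0.22 (adjusted p = 0.0365). Its group means were at or below the 40th percentile, with 4.97, 4.35 and 4.49 in oxLDL and 3.58, 3.58 and 3.74 in DMEM. Ilk, the integrin-linked kinase, rose by 0.96 ± 0.18 (adjusted p = 0.0203), with 8.72, 8.88 and 8.53 in oxLDL and 7.58, 7.75 and 7.94 in DMEM. Every matrix and integrin call named here was lost without at least 1 of the 6 arrays, with adjusted p up to 0.134.

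**Figure D2:**
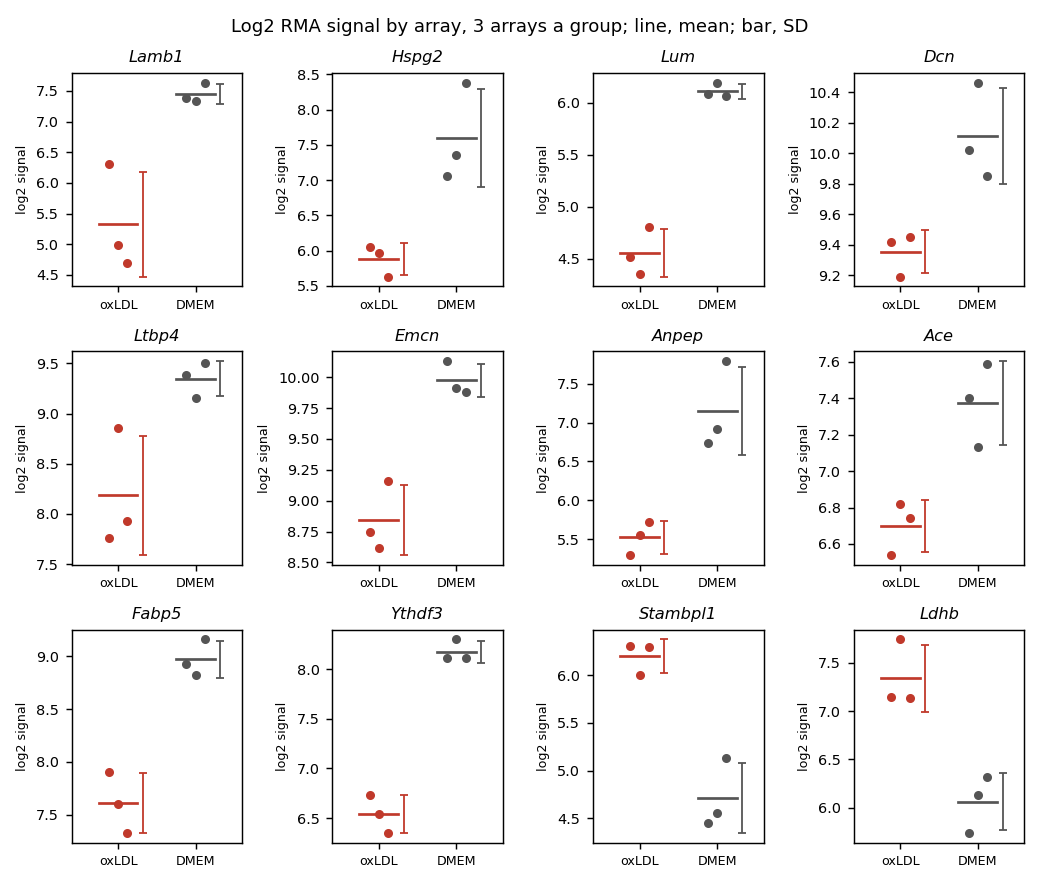
Log2 RMA signal (vertical axes, scaled to each gene) of 12 genes in the 3 oxLDL and 3 DMEM arrays, with the group mean as a line and the SD as a bar. In 10 genes all oxLDL points lie below the DMEM points, and in Stambpl1 and Ldhb they lie above.

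At the endothelial surface, the sialomucin and the peptidases of the cell membrane fell, while the other endothelial markers and the nitric oxide genes other than Gch1 passed no test. Emcn encodes endomucin, a sialomucin of the endothelial surface that hinders leukocyte contact. It read 8.75, 8.62 and 9.16 in oxLDL, against 10.13, 9.91 and 9.88 in DMEM. The groups were far apart, and the difference of −1.13 ± 0.16 was among those that held whichever array was left out (adjusted p = 0.00793). Emcn was the only call among 22 tested endothelial markers, whose median was −0.20, and 15 of them lay below 0. The mean log2 signal of these markers was 8.09, 8.19 and 8.37 in oxLDL, against 8.44, 8.42 and 8.53 in DMEM. Their summed linear signal ranged from 11522 to 13772 in oxLDL and from 13576 to 15545 in DMEM, and the part of endothelial content in the fall of Emcn was not tested. Of the 22 markers, 11 had all oxLDL arrays below all DMEM arrays and 1 had them all above, against 13.9% and 14.4% of all genes tested. Pecam1, Cdh5 and Vwf differed by −0.27, −0.04 and 0.04. Further from 0, without a call, were Sox17 at −0.97 (limma adjusted p = 0.0696), Icam2 at −0.59 and Egfl7 at −0.58, while Cldn5 was highest at 0.40.

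Both peptidases of the renin-angiotensin list fell, 2 of its 4 tested members. Anpep, aminopeptidase N, which trims angiotensin peptides, read 5.30, 5.55 and 5.72 in oxLDL, against 6.74, 6.92 and 7.79 in DMEM. Its difference was −1.63 ± 0.36 (adjusted p = 0.0336). Ace, the angiotensin-converting enzyme of the endothelial surface, fell by 0.68 ± 0.16 (adjusted p = 0.0454), with 6.54, 6.82 and 6.74 in oxLDL and 7.40, 7.13 and 7.59 in DMEM. Neither gene overlapped between groups, but both calls were lost whichever of the 6 arrays was left out. Prom1, the cholesterol-binding membrane protein prominin-1, fell by 1.62 ± 0.23 (adjusted p = 0.00793) and averaged below the 40th percentile of the oxLDL arrays.

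Gch1, which makes the tetrahydrobiopterin that nitric oxide synthases need, fell by 0.98 ± 0.18 (adjusted p = 0.0198). It read 7.80, 7.70 and 7.51 in oxLDL and 8.57, 8.59 and 8.79 in DMEM, without overlap. A second probe set of Gch1 gave −0.02, so the fall rests on 1 of 2 probe sets. It was the only call among 14 genes of nitric oxide, endothelin and the KLF factors. Nos3, the endothelial nitric oxide synthase, differed by −0.51 (95% interval −1.44 to 0.41), and Klf2 and Klf4, the flow-responsive factors, by 0.16 and −0.14. In the Notch pathway, 1 of 15 genes fell. This was Rbpj, the DNA-binding partner of the cleaved Notch receptors, at 8.46, 8.55 and 8.34 in oxLDL and 9.17, 8.97 and 9.21 in DMEM. Its difference was −0.67 ± 0.14 (adjusted p = 0.0316), and a second probe set gave −0.32. The call of Rbpj was lost whichever of the 6 arrays was left out, and also with the mean of its probe sets. The VEGF and angiopoietin, coagulation and prostaglandin lists held no call. Their smallest p-values belonged to the growth factor Pgf (−0.54), to the plasminogen activator Plau (0.52) and to the prostaglandin D synthase Hpgds (−1.0).

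In the handling of lipid, 1 fatty acid carrier fell, and the receptors, sterol genes and LXR targets that respond to cholesterol loading showed no call. Fabp5, the epidermal fatty acid binding protein that carries fatty acids to nuclear PPAR receptors, read 7.90, 7.60 and 7.33 in oxLDL, against 8.93, 8.82 and 9.16 in DMEM. All oxLDL arrays lay below all DMEM arrays, and the difference of −1.36 ± 0.24 (2.57-fold lower, adjusted p = 0.0179) was matched by −1.33 in a second probe set. The other 19 of 20 lipid uptake and PPAR target genes were not called, with a list median of −0.15. Cd36, a fatty acid translocase and scavenger receptor, read 6.76, 6.90 and 6.54 in oxLDL and 7.60, 7.65 and 7.58 in DMEM. These groups did not overlap, yet the difference of −0.87 ± 0.40 missed the threshold (adjusted p = 0.234).

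None of 17 scavenger and lipoprotein receptors was called. Olr1, which encodes LOX-1, differed by −0.18 (95% interval −1.41 to 1.05), and Scara3, a scavenger receptor class A member, had the smallest p of the list, at −0.67 (adjusted p = 0.111). None of 14 sterol synthesis genes was called, and Srebf2, the factor that drives that pathway, had the smallest p at −1.14 (adjusted p = 0.0877). None of 8 LXR pathway genes was called either. Abcg1, a cholesterol exporter, differed by 0.07 (95% interval −0.50 to 0.65), and the lipase gene Lpl, whose groups overlapped, by −0.70. Of the fatty acid synthesis genes, the desaturase Fads1 was closest to a call, at 0.63 ± 0.16 (adjusted p = 0.0523). Among beta-oxidation enzymes of the list there was no call, with the carnitine carrier Slc25a20 at 0.58 (adjusted p = 0.134). Among the leading changes were a pair of peroxisomal enzymes. Far1, which makes fatty alcohols for ether lipids, fell by 1.52 ± 0.19 (adjusted p = 0.00538), and Acaa1a, a thiolase of beta-oxidation, rose by 1.00 ± 0.21 (adjusted p = 0.0258). The other Acaa1a probe sets gave −0.10, −0.04 and 0.25, and its call was kept in 2 of the 6 cases with an array left out.

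Lysosome and autophagy genes split, with 3 falls and 1 rise among 32 tested members and a median of 0.03. Many lysosomal promoters carry the CLEAR element bound by TFEB, whose core is the palindrome CACGTG, so the promoter windows of the 4 called members are printed. They run from 250 bases before to 50 bases after the gene's start in the RefSeq annotation of GRCm38.p6, are written in the direction of transcription, and capitals mark CACGTG.
Gla (chrX:134600956-134601255, minus strand): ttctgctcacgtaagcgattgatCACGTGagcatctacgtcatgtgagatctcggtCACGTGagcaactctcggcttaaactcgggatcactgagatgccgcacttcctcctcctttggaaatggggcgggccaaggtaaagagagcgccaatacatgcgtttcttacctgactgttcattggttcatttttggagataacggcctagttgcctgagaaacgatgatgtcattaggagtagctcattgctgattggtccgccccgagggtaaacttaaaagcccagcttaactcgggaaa
Ctsa (chr2:164833523-164833822, plus strand): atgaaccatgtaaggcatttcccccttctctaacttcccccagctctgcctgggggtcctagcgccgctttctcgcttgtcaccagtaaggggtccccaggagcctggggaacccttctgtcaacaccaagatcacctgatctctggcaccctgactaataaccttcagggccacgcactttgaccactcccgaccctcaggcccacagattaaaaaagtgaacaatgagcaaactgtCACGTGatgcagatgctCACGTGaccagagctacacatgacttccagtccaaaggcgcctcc
Tbc1d14 (chr5:36582348-36582647, minus strand): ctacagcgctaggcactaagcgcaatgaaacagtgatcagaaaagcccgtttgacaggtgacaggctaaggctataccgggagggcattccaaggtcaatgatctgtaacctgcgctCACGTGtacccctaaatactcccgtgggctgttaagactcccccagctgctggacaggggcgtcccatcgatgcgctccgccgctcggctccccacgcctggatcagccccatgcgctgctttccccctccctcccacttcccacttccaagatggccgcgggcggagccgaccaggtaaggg
Tmem106b (chr6:13069509-13069808, plus strand): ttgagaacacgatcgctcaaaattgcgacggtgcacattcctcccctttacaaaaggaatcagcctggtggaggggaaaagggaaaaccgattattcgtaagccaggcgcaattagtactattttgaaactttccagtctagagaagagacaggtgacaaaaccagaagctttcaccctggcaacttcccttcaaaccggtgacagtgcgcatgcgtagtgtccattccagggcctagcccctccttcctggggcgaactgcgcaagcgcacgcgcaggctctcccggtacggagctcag

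The 3 genes that fell hold the motif, at 2 places in Gla and Ctsa and at 1 in Tbc1d14, and the gene that rose does not. Ctsa and Tbc1d14 each have 2 listed windows, and the window with the most matches is printed, which favours finding the motif in them. CACGTG reads the same on both strands and was searched once per window. It is present in 7.15% of 32851 RefSeq promoter windows, counted singly. Counted by gene, with a match in any of its windows, it is present in 12.5% of 6114 tested genes with a window. The same count gives 50% of 26 tested genes of the lysosome list. Of the 22 lysosome members that were not called, 45.5% hold it, and so do 14.6% of the 158 called genes of any kind with a window. A match describes the letters of a window and is not evidence of binding.

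Gla encodes alpha-galactosidase A, which clears globotriaosylceramide in lysosomes. It read 7.17, 7.18 and 7.52 in oxLDL, against 8.22, 8.30 and 8.16 in DMEM. The difference was −0.93 ± 0.14 (adjusted p = 0.00793), and its call was kept whichever array was left out. A second Gla probe set, below the 40th percentile, gave −0.30. In fresh intima the gene lay lower than in either group, at 5.52 to 6.48 with a median of 5.92. Ctsa, the protective protein cathepsin A, read 6.08, 6.59 and 6.21 in oxLDL, against 7.27, 7.14 and 7.60 in DMEM, a fall of 1.05 ± 0.22 (adjusted p = 0.0287). Tbc1d14, a regulator of recycling endosomes that limits autophagosome formation, read 5.48, 4.78 and 4.86 in oxLDL, against 6.85, 6.79 and 7.26 in DMEM. Its difference of −1.93 ± 0.33 (adjusted p = 0.0172) came with −1.79 and −0.26 in the other probe sets. Tmem106b, a lysosomal membrane protein that affects lysosome size and acidity, moved up, with 7.60, 7.19 and 7.00 in oxLDL and 6.25, 5.94 and 6.08 in DMEM (1.18 ± 0.28, adjusted p = 0.0452). Lyst, which controls the size of lysosome-related granules and was not on the list, fell by 1.58 ± 0.30 (adjusted p = 0.0202), with −0.54 and 0.06 in its other probe sets, and kept its call in 2 of the 6 cases with an array left out. Other lysosomal genes such as Lamp1 (−0.08), Npc1, the lysosomal cholesterol exporter (−0.25), and Ctsd, cathepsin D (0.44), passed no test. The calls of Ctsa and Tmem106b were lost whichever array was left out, and that of Tbc1d14 without oxLDL replicate 15 or 16 or DMEM replicate 9.

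The inflammatory lists held no call with oxLDL. None passed the test among 16 cytokines and chemokines, 15 NF-kB genes, 19 interferon-induced genes or 10 leukocyte adhesion molecules. The adhesion molecules sat high in both groups. Icam1 read 11.35, 11.43 and 11.43 in oxLDL and 11.44, 11.28 and 11.35 in DMEM, and its difference of 0.05 had a 95% interval of −0.22 to 0.32. Sele, E-selectin, differed by −0.13 (interval −0.78 to 0.51), and Vcam1 by −0.36 (interval −0.90 to 0.19). All 3 intervals lay within 1 log2 unit of 0. Cd99l2, which takes part in leukocyte passage, had the smallest p of the adhesion list, at 0.94 (adjusted p = 0.0685).

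In the cytokine, NF-kB and interferon lists the member of smallest p was lower with oxLDL. Ifit1, an interferon-induced antiviral gene, read 4.83, 4.79 and 4.41 in oxLDL, against 6.63, 6.84 and 5.54 in DMEM. All oxLDL arrays were lower, and the difference was −1.66 ± 0.41 (adjusted p = 0.0531). Ccl2, the monocyte chemoattractant, read 3.53, 3.69 and 4.14 in oxLDL and 4.41, 5.75 and 4.74 in DMEM, with a difference of −1.18 ± 0.34 (adjusted p = 0.0773). Its oxLDL mean was under the 40th percentile and its DMEM mean only 0.38 above it, so this difference rests on values near background. Rel, an NF-kB subunit, differed by −0.46 (adjusted p = 0.12), and the chemokines Cxcl1 and Cxcl2 by 0.01 and 0.25. These lists had medians of −0.12 for cytokines, −0.11 for NF-kB genes, 0.07 for interferon-induced genes and −0.23 for adhesion molecules. In the complement and MHC class II list, C4b, complement component C4, fell by 1.60 ± 0.39 (adjusted p = 0.0494), 1 of 13 tested members.

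Macrophage and red cell markers gave 1 fall each. Among 16 macrophage markers 12 lay below 0 and 4 above, with a median of −0.44, and 1 fell. This was C1qa, a chain of complement C1q, at −0.88 ± 0.20 (adjusted p = 0.0384). The mean log2 signal of the list ranged from 6.00 to 6.33 in oxLDL and from 6.43 to 6.65 in DMEM, so the groups did not overlap. Its summed linear signal ranged from 2326 to 3028 in oxLDL and from 3241 to 3580 in DMEM. Hba-a2, an alpha-globin gene, fell by 0.84 ± 0.15 (adjusted p = 0.0179), 1 of 6 tested erythroid and platelet markers, whose summed linear signal ranged from 1380 to 1529 in oxLDL and from 2094 to 2890 in DMEM. How far such cell content bears on C4b, Ccl2, Cd36 or other genes shared with leukocytes was not tested.

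Antioxidant and stress genes gave few calls. None of 24 NRF2 targets was called, although 18 of them lay above 0 and the median was 0.10. Txnrd1, thioredoxin reductase, read 10.55, 10.72 and 10.73 in oxLDL, against 10.26, 10.26 and 10.10 in DMEM. The arrays did not overlap, and the difference of 0.46 ± 0.13 missed the threshold (adjusted p = 0.0689). Hmox1, heme oxygenase 1, differed by 0.09 (95% interval −0.41 to 0.59), and Nqo1, a quinone reductase, by 0.82 (interval 0.04 to 1.61, adjusted p = 0.211). Cat, the peroxisomal catalase that removes hydrogen peroxide, was the 1 call among 14 oxidase and antioxidant enzyme genes. It read 6.76, 5.94 and 6.31 in oxLDL, against 7.37, 7.51 and 7.68 in DMEM, a fall of 1.18 ± 0.24 (adjusted p = 0.0235), but a second probe set gave 0.12. Cp, ceruloplasmin, a copper-carrying ferroxidase, fell by 0.88 ± 0.17 (adjusted p = 0.0198), the 1 call among 10 iron and metallothionein genes.

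The unfolded protein response and heat shock lists held no call among 19 and 15 genes. Their smallest p-values were those of Eif2ak3, the PERK kinase, at −0.97 (adjusted p = 0.0603), and of the small heat shock protein Hspb8, at 0.54 (adjusted p = 0.139). Of 22 ATF4 targets, 1 fell. Chac1, which degrades glutathione, read 7.98, 8.21 and 8.25 in oxLDL and 8.80, 9.07 and 8.94 in DMEM, with a difference of −0.79 ± 0.17 (adjusted p = 0.0289). In fresh intima Chac1 ran from 2.78 to 3.37, far below both incubated groups. The list of immediate early factors and CCN genes gave 2 rises among 18. Nr4a2, a nuclear receptor induced by many stimuli, read 8.88, 8.73 and 8.49 in oxLDL and 7.93, 7.97 and 8.01 in DMEM (0.73 ± 0.17, adjusted p = 0.0431). A second probe set of Nr4a2 gave −0.49. Ccn5, a matricellular protein that smooth muscle makes, rose by 1.27 ± 0.29 (adjusted p = 0.0398). No MAP kinase phosphatase gene was called, with Dusp1 at −0.43 (adjusted p = 0.0914).

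Energy metabolism and cell death lists gave single calls, a rate near the 2.81% called among all genes tested, so nothing was read from these counts. Ldhb, the lactate dehydrogenase B chain that favours the conversion of lactate to pyruvate, read 7.14, 7.74 and 7.13 in oxLDL, against 5.74, 6.13 and 6.32 in DMEM. Each oxLDL array was above each DMEM array, and the rise of 1.27 ± 0.24 (2.42-fold, adjusted p = 0.0207) came with 1.38 in a second probe set. It was the 1 call among 27 hypoxia and glycolysis genes, whose median was −0.26, and Ldha, the other chain, differed by −0.26. Of 41 respiratory chain genes, Uqcrc2, a core protein of complex III, fell by 0.62 ± 0.14 (adjusted p = 0.0431), with −0.24 in a second Uqcrc2 probe set. Of 33 p53 and apoptosis genes, Bbc3, which encodes the death activator PUMA, rose by 0.64 ± 0.15 (adjusted p = 0.0424). Mitotic, TGF-beta, insulin-like growth factor and clock genes held no call. Within them Cdc6 differed by −0.87, Inhba by 0.60, Igfbp3 by −2.06 (adjusted p = 0.0531) and Nr1d2 by −0.40.

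**Figure D3:**
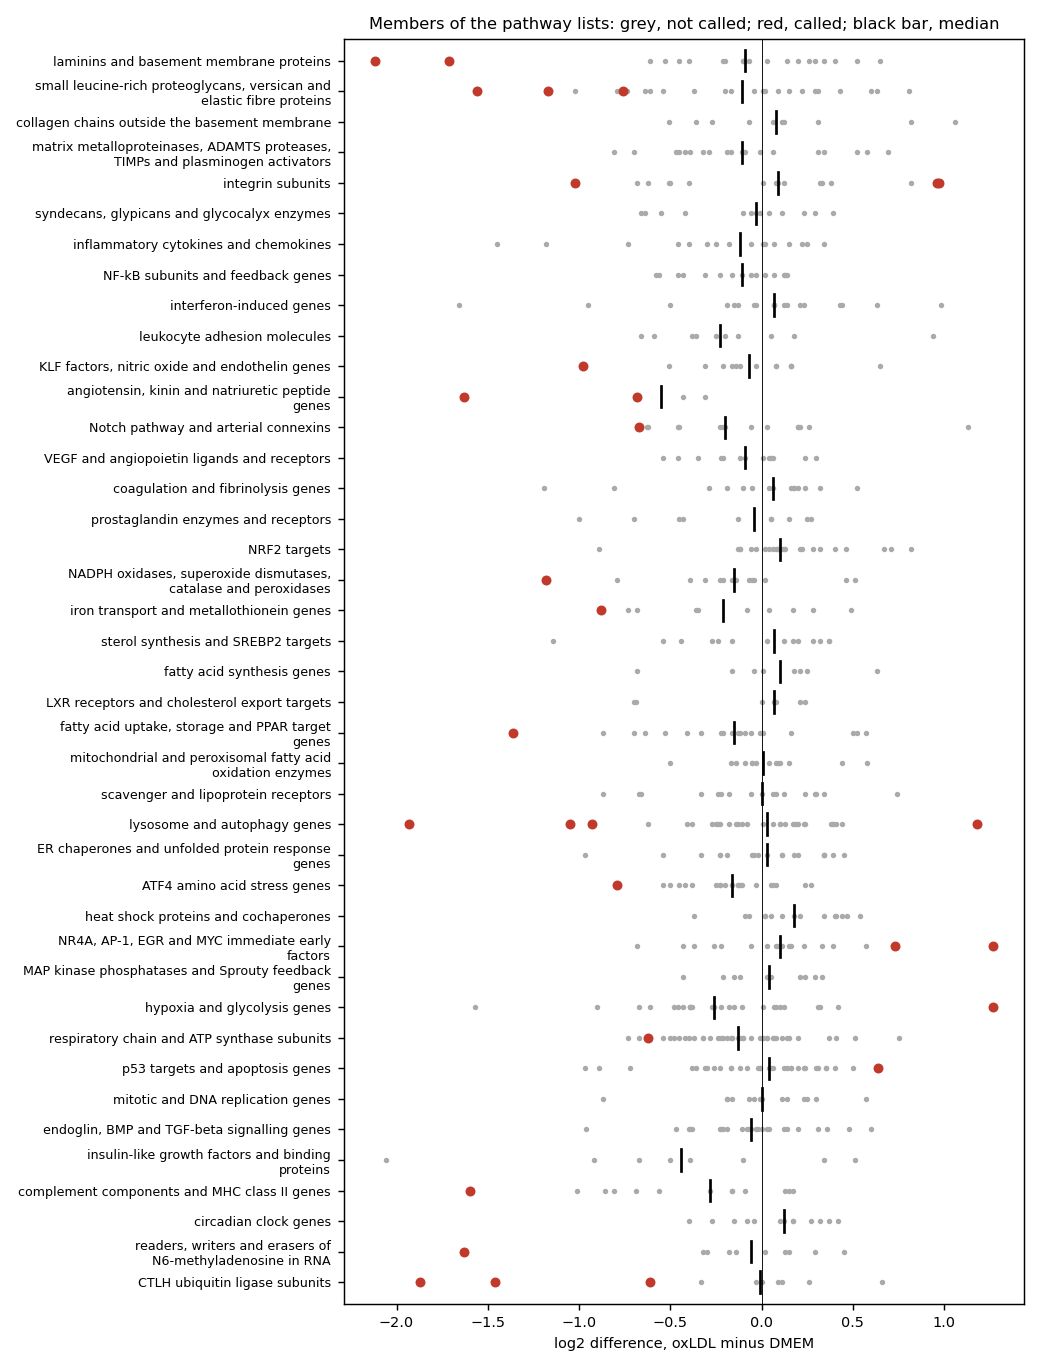
Log2 difference (oxLDL minus DMEM, horizontal axis) of each tested member of 41 pathway lists (rows), with called members in red and the list median as a black bar. In 23 lists no member was called, and the medians run from −0.55 to 0.18.

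The smallest p of the comparison belonged to a reader of RNA methylation. Ythdf3 binds N6-methyladenosine in mRNA and acts in its translation and decay. It read 6.73, 6.54 and 6.35 in oxLDL, against 8.11, 8.30 and 8.11 in DMEM. The groups were tight and well apart, and the difference was −1.63 ± 0.16, a level 3.09-fold lower with oxLDL (adjusted p = 0.00168). The call held whichever array was left out, with adjusted p up to 0.0142. Its other probe sets gave −0.84 and −0.40, a smaller change in the same direction. The 9 other tested genes of the methylation machinery were not called, and the list median was −0.06. Mettl3, the methyltransferase, differed by −0.14, Ythdf1, a close relative, by 0.02, and Alkbh5, a demethylase, by 0.29.

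Subunits of the CTLH complex, an E3 ubiquitin ligase, gave 3 falls among 10 tested genes, with a median of −0.01. Gid8, a scaffold subunit, read 5.16, 5.14 and 5.62 in oxLDL, against 7.03, 7.29 and 7.20 in DMEM (−1.87 ± 0.22, adjusted p = 0.00464). A second probe set of Gid8 went in the opposite direction, by 0.49, so the fall rests on 1 of 2 probe sets. Rmnd5b, a RING subunit, read 6.31, 6.26 and 6.51 in oxLDL and 7.68, 7.92 and 7.85 in DMEM (−1.46 ± 0.24, adjusted p = 0.0144). Ranbp9, another scaffold subunit, fell by 0.61 ± 0.15 (adjusted p = 0.0494) and lost its call whichever array was left out. Maea and Wdr26, further subunits, did not pass the test, with Wdr26 at 0.11.

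The remaining leading falls belonged to none of the lists. Eps8, an actin capping and bundling protein, fell by 1.91 ± 0.40 (adjusted p = 0.0282), Mdfic, an inhibitor of MyoD family factors, by 1.61 ± 0.21 (adjusted p = 0.00571), and the G protein-coupled receptor Gpr146 by 1.51 ± 0.28 (adjusted p = 0.0198), although a second Gpr146 probe set gave 0.06. The transcript Rab26os fell by 2.07 ± 0.41 (adjusted p = 0.0226), and its oxLDL arrays spread widely, from 3.89 to 6.06. Among the rises, Stambpl1, a deubiquitinase, was first. It read 6.31, 6.00 and 6.30 in oxLDL, against 4.45, 4.55 and 5.13 in DMEM (1.49 ± 0.22, 2.82-fold, adjusted p = 0.00793). Its call held in 5 of the 6 cases with an array left out. It was followed, with Pcp2 and Tbx15 averaging below the 40th percentile in DMEM, by Pcp2, a regulator of G protein signalling (1.40 ± 0.30), B3galnt2, which glycosylates dystroglycan (1.29 ± 0.24), the transcription factor Tbx15 (1.24 ± 0.24), the zinc finger gene Zkscan14 (1.16 ± 0.23), the membrane protein Creld1 (1.10 ± 0.25) and Eid1, an inhibitor of differentiation factors (0.99 ± 0.22). Their limma adjusted p-values ran from 0.0198 to 0.0383. Other probe sets gave −0.75 for B3galnt2, 0.31 for Tbx15, 0.03 and 0.15 for Zkscan14, 0.22 and 1.16 for Eid1, and 0.32 and −0.02 for Pcp2.

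Among the leading rises were 3 genes of the actin cytoskeleton that smooth muscle expresses strongly. Csrp1, an actin-associated LIM protein, read 9.85, 9.87 and 9.77 in oxLDL, against 8.44, 8.60 and 9.07 in DMEM (1.13 ± 0.21, adjusted p = 0.0198), and a second probe set gave 1.23. Dmd, dystrophin, rose by 1.08 ± 0.21 (adjusted p = 0.0203), while its other probe sets gave −0.60 and 0.07. Flna, filamin A, an actin cross-linker, rose by 0.99 ± 0.23 (adjusted p = 0.0452). In fresh wild-type intima Csrp1, Dmd and Flna averaged 9.89, 9.77 and 9.82, against 9.83, 9.89 and 9.53 in oxLDL and 8.70, 8.82 and 8.54 in DMEM. Smooth muscle markers lay higher with oxLDL than in DMEM as well. None of the 14 was called, but all 14 lay above 0 with a median of 0.66, and the smallest p was that of Myocd, the smooth muscle coactivator myocardin, at 0.90 (adjusted p = 0.0668). Their mean log2 signal was 8.64, 8.59 and 8.16 in oxLDL, against 7.33, 7.77 and 8.33 in DMEM, so the groups overlapped, with DMEM replicate 9 lowest. By group, these markers averaged 8.46 in oxLDL, 8.54 in LPS, 8.8 in oxPAPC and 8.86 in fresh wild-type intima. In DMEM they averaged 7.81, the lowest of these groups. Their summed linear signal ranged from 10557 to 14264 in oxLDL and from 6136 to 11506 in DMEM, and the 4 pericyte markers, with Kcnj8 at 1.14 (adjusted p = 0.0654), also lay above 0. The part of smooth muscle content in these rises was not tested.

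**Figure D4:**
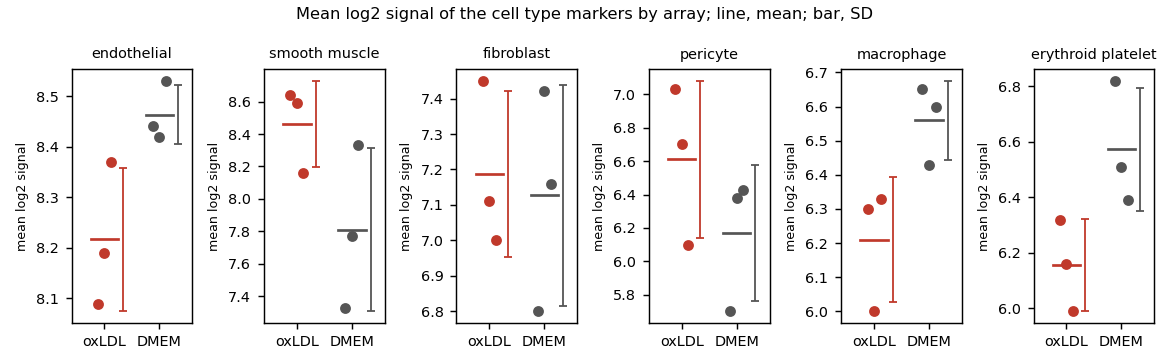
Mean log2 signal (vertical axes) of the markers of 6 cell types in each oxLDL and DMEM array, with group mean as a line and SD as a bar. Endothelial, macrophage and erythroid and platelet markers lie lower in all oxLDL arrays than in DMEM, smooth muscle markers lie higher on average with overlap, and fibroblast and pericyte markers overlap.

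Whether the changes differed from those of the other stimuli was tested between the stimulated groups. These differences do not use the medium arrays, but their standard errors and p-values use a spread estimated from all 4 incubated groups. OxLDL differed from oxPAPC, at the same mass concentration, in 934 genes (12.4% of those tested) and from LPS in 383 (5.07%). Of the 212 genes that changed against medium, 68 also differed from oxPAPC, 61 of them in the direction they took against medium, and 54 differed from LPS, 53 of them in that direction. Both comparisons share the oxLDL arrays with the comparison against medium, so nothing was read from these shares. Among the 15 leading rises, 3 were higher than in oxPAPC, a direction called in 7.8% of all genes tested, and 1 was higher than in LPS, called in 2.86%. Among the 15 leading falls, 4 were lower than in oxPAPC (4.57% of all genes) and 5 were lower than in LPS (2.21%).

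Ythdf3, Gid8, Far1, Gla, Rbpj and Rab26os were lower in oxLDL than in either other stimulus, and Trub2 was higher. The red cell marker Hba-a2 was also lower than in both, by 1.02 than in oxPAPC (adjusted p = 0.00301) and by 0.86 than in LPS (adjusted p = 0.0102). All of these genes were named for their change against medium in the same oxLDL arrays. That choice favours the same direction here, and the adjusted p-values do not allow for it. Ythdf3 read 6.73, 6.54 and 6.35 in oxLDL, against 8.09, 8.34 and 7.82 in oxPAPC and 7.51, 7.58 and 7.54 in LPS. The oxLDL arrays lay below all others, by 1.54 from oxPAPC (adjusted p = 0.000622) and by 1.00 from LPS (adjusted p = 0.00635). Gid8, whose second probe set went the other way against DMEM, was lower by 1.51 than in oxPAPC (adjusted p = 0.00271) and by 1.11 than in LPS (adjusted p = 0.0171). Far1 was lower by 0.80 than in oxPAPC (adjusted p = 0.02) and by 0.96 than in LPS (adjusted p = 0.0181). For Gla the differences were −1.13 from oxPAPC (adjusted p = 0.00135) and −0.72 from LPS (adjusted p = 0.015). For Rbpj they were −1.01 (adjusted p = 0.00271) and −0.89 (adjusted p = 0.00785). Trub2, a mitochondrial RNA pseudouridine synthase, read 8.47, 8.34 and 8.56 in oxLDL, against 6.78, 6.15 and 6.69 in oxPAPC, 7.00, 7.55 and 7.39 in LPS and 7.34, 7.54 and 7.45 in DMEM. It exceeded oxPAPC by 1.92 (adjusted p = 0.000622) and LPS by 1.14 (adjusted p = 0.00794). Against DMEM the other Trub2 probe sets gave 1.02 and 0.02.

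Catalase and Nr4a2 separated the oxidized lipid preparations. Cat read 6.76, 5.94 and 6.31 in oxLDL, against 8.73, 8.83 and 8.23 in oxPAPC, a difference of −2.26 (adjusted p = 0.000647). Nr4a2 was lower in oxLDL than in oxPAPC by 0.98 (adjusted p = 0.00604), although it was above medium. Fabp5 was lower than medium in oxLDL but higher in oxLDL than in oxPAPC by 0.84 (adjusted p = 0.0391), with no call against LPS (0.58, adjusted p = 0.178). Cp was likewise higher in oxLDL than in oxPAPC by 0.74 and than in LPS by 0.80 (adjusted p = 0.0149 and 0.0212). Emcn differed from LPS by −0.63 (adjusted p = 0.0428) and from oxPAPC by −0.03 (adjusted p = 0.914).

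Lamb1, Hspg2, Lum and Anpep did not differ between stimuli at the threshold, while the matrix protease Mmp14 was lower in oxLDL than in LPS by 1.34 (adjusted p = 0.00635). Lamb1 read 6.30, 4.99 and 4.69 in oxLDL, against 4.46, 4.58 and 5.12 in oxPAPC and 5.36, 5.48 and 6.39 in LPS, and the groups overlapped. The difference was 0.60 from oxPAPC (95% interval −0.22 to 1.43) and −0.41 from LPS (interval −1.24 to 0.41). Hspg2 differed by −0.46 and −0.21, Lum by 0.31 and −0.46, and Anpep by 0.69 and 0.19. Against the same DMEM arrays, all of these were also called lower in oxPAPC and in LPS, with Lamb1 at −2.73 and −1.71. So were Fabp5, Prom1, Rmnd5b, Ctsa, Eps8, Mdfic and Tbc1d14. These falls are therefore not particular to oxLDL, and all 3 comparisons share the DMEM arrays. Ythdf3, Gid8 and Rab26os were not called against DMEM in oxPAPC. In LPS, however, Ythdf3 (−0.63, limma adjusted p = 0.0315) and Gid8 (−0.76, adjusted p = 0.0499) were also called lower than DMEM, while Rab26os was not (0.03). Of the leading rises, Stambpl1, B3galnt2, Tbx15, Csrp1, Dmd and Eid1 were called higher than DMEM in oxPAPC and in LPS as well. Stambpl1 lay above DMEM by 1.09 in oxPAPC (limma adjusted p = 0.00726) and by 1.23 in LPS (adjusted p = 0.00926). These rises are therefore not particular to oxLDL either, and the other leading rises were not called in both. The interferon gene Ifit1 read 4.83, 4.79 and 4.41 in oxLDL, against 10.21, 9.34 and 8.96 in LPS, and was lower by 4.82 (adjusted p = 0.000102). Rel, the NF-kB subunit, was lower than in LPS by 1.43 (adjusted p = 0.000773).

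**Figure D5:**
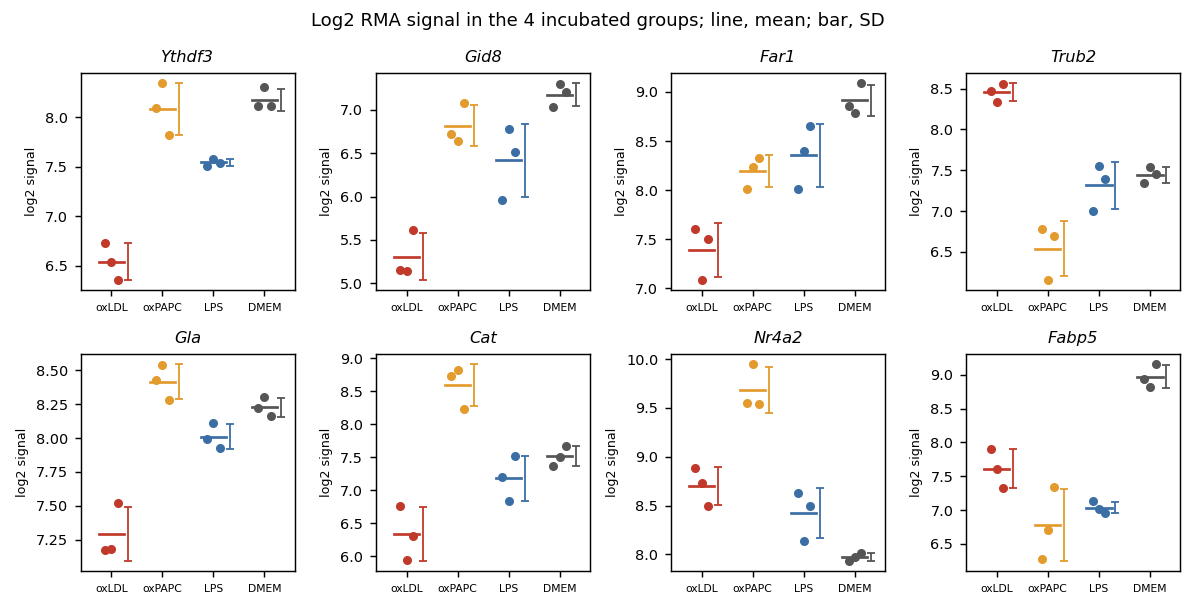
Log2 RMA signal (vertical axes, scaled to each gene) of 8 genes in the oxLDL, oxPAPC, LPS and DMEM arrays, 3 arrays each, with the mean as a line and the SD as a bar. In Ythdf3, Gid8, Far1, Gla and Cat the oxLDL arrays are the lowest, in Trub2 they are the highest, and in Nr4a2 and Fabp5 their mean lies between those of oxPAPC and DMEM.

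Further probe sets gave a check on the calls that does not use the representative probe set. Of the 212 called genes, 109 had other probe sets, 167 in all, and 125 of these differed in the same direction. Among the 124 that lay above the 40th percentile, 96 did. At an unadjusted p under 0.05, 59 differed the same way and 7 the opposite way. When the mean of all probe sets of a gene was used, 136 of the 212 genes were still called, against 202 with cyclic loess scaling and 53 when only the 6 arrays of both groups were fitted. Called genes outside the 109 have a single probe set. The mean left their values unchanged, so it could check only the 109.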

How the data were processed

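RNA of the 22 samples was measured on Affymetrix 3-prime arrays, and the authors deposited log2 signals that affy computed by RMA, per the submitters' processing notes (versions not given). RMA corrects background, quantile normalizes and summarises probes, which hides a shift shared by most transcripts. Whether all arrays were normalized together, and the genome build, are not given in the sources used here. Raw intensities and detection calls were not used here, and the number of arrays limits the precision.

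Of 22626 probe sets, 18003 carried 1 symbol in the platform annotation, 287 several and 4336 none, and only the first were used. Where a gene had several probe sets, the one with the highest mean over the 22 arrays stood for it. It was tested if it lay above the 40th percentile of the array in at least 3 of the 12 incubated arrays. The 4 incubated groups of 3 arrays were fitted together in limma 3.58.1 (lmFit, eBayes; R 4.3.3), with 8 residual degrees of freedom. P-values are two-sided and Benjamini-Hochberg adjusted over all genes tested, with 0.05 as the threshold for a call. Every ± is a standard error from this fit, and intervals are 95% intervals of it. An exact permutation test on 3 against 3 arrays cannot go below 0.1 and was not used.

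The 51 gene lists (1012 entries, 868 on the array) and cell type markers were chosen with earlier results of these data known, as was the comparison itself, so lists are described by counts and medians only. Named are the 15 calls that rose most, the 15 that fell most, the called members of each list (the 4 of smallest p at most) and, for lists without a call, the single member of smallest p. Further list members without a call are given as values. Alternatives were the level filter, the scaling, the arrays in the fit, the variance prior, the mean over probe sets and leaving out each array. The fit was tested on simulated data. Promoter sequences are from RefSeq, assembly GRCm38.p6.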

Additional observations from a re-analysis of the deposited data

How the results depend on the processing

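The direction of the comparison, more falls than rises, held under every alternative run. Genes called higher with oxLDL numbered 56, against 106 without the level filter, 95 with the filter at the 60th percentile, 11 with only the 2 groups fitted, 36 with the mean of all probe sets and 92 with an intensity trend and robust estimation. Genes called lower numbered 156, against 53 with only the 2 groups fitted, where the total was 64 against 212. With cyclic loess scaling 83 genes were higher and 159 lower, and with median centring 76 were higher and 134 lower. Ace, Asah1 and Ranbp9 lost their calls under both scalings. With 1 array left out, including the LPS and oxPAPC arrays, an alternative chosen after seeing the data, the calls ranged from 0 to 131 higher, from 23 to 246 lower and from 23 to 377 in all. The highest count came without oxPAPC replicate 13 and the lowest without DMEM replicate 9, and the cause was not tested. The difference of Hspg2 between oxLDL and oxPAPC was −0.46 and turned to 0.09 with the mean of its probe sets. No paired analysis was possible because the groups compared share no replicate numbers. With 3 arrays a group, the smallest change called was 0.47 on the log2 scale, and genes near the 40th percentile rest on signals close to background.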

Other observations

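Several called genes outside the lists belong to families that were looked up after their values were seen, so their counts are descriptions only. Of 15 tested cytosolic aminoacyl-tRNA synthetases, which charge tRNAs with amino acids, 3 were called, all lower with oxLDL, and the median was −0.16. Iars, the isoleucine enzyme, read 8.39, 8.51 and 8.42 in oxLDL, against 9.53, 9.33 and 9.91 in DMEM (−1.15 ± 0.16, limma adjusted p = 0.00793). Farsa and Qars, the phenylalanine and glutamine enzymes, fell by 1.26 and 0.84, with 0.11, −0.03 and −0.02 in the other Qars probe sets. Of 8 cohesin genes, Stag2 and Stag1, alternative subunits of the ring that holds sister chromatids together, fell by 1.00 and 0.82, but the second Stag2 probe set gave −0.01 and the other Stag1 probe sets 0.04, 0.24 and −0.29. Of 25 genes of ER to Golgi and Golgi trafficking, 4 fell and 1 rose. Vamp3, a vesicle SNARE of recycling endosomes, read 7.79, 7.95 and 7.64 in oxLDL, against 9.39, 9.07 and 9.16 in DMEM (−1.42 ± 0.16, adjusted p = 0.00464). Gosr1, Cog8 and Uso1 fell by 1.15, 0.89 and 0.83, and Arcn1, a coat protein, rose by 0.47. Second probe sets gave −0.04 for Gosr1 and −0.08 for Arcn1.

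Among 34 lysosomal hydrolases, 5 fell and 1 rose, with a median of −0.07. Beside Gla and Ctsa these were Tpp1, tripeptidyl peptidase, which fell by 0.99, Rnaset2a by 1.00 and Asah1, acid ceramidase, by 0.53, while Scpep1 rose by 0.74, with 0.05 in its second probe set. Of 15 Wnt receptor and planar polarity genes, Lrp6, Fzd4 and Celsr1 fell by 0.73, 0.71 and 0.71. Cd151, a tetraspanin that binds laminin-binding integrins, fell by 0.80 (adjusted p = 0.0389), while its other probe sets gave −0.03, −0.19 and 0.09. Numb, which restrains Notch, fell by 0.58, against 0.28 in its second probe set, and Hes6 rose by 0.61. With the mean of all probe sets, Stag1, Stag2, Qars, Gosr1, Arcn1, Scpep1, Cd151, Numb and Hes6 were no longer called. Of 16 actin-binding and focal adhesion genes of contractile cells, 4 rose and none fell, with a median of 0.20.

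Of the 21 falls whose call was kept whichever of the 6 arrays was left out, those not in the report were Vamp3 and Iars, given above, and Rbbp6, 4921524J17Rik, Camk1d, Sema3f, Zbed4, Fbxw5, Sharpin, Capns1, Mtx2, Nol11, Dapk1 and Fam122a, with differences from −1.47 to −0.98. Sharpin, a subunit of the linear ubiquitin chain assembly complex, read 6.72, 6.17 and 6.61 in oxLDL, against 7.69, 7.55 and 8.03 in DMEM. Sema3f, a secreted semaphorin that restrains vessel growth, read 3.60, 4.19 and 3.95 in oxLDL, against 5.12, 5.34 and 5.40 in DMEM. Its oxLDL mean lay under the 40th percentile, and a second Sema3f probe set gave −0.01. In both genes every oxLDL array lay below every DMEM array.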
